A study of Mus musculus with 15 samples.

Results

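Gene expression was compared between 4T1 cells treated with blackberry extract (BLA) and untreated 4T1 cells by bulk RNA-seq. 4T1 is an established mouse mammary carcinoma line from a BALB/c tumor, used as a model of triple-negative breast cancer. Both groups were grown in the same serum-containing medium, and the labels give neither the dose nor the time of harvest. The comparison uses 6 of the 15 deposited columns, 3 of BLA and 3 of untreated cells. The other columns hold cells treated with blueberry extract (BLU) or with gold nanoparticles made with either extract (BLA-A and BLU-A). The 3 columns of a condition are subsets of the reads of 1 library, so they were averaged and each condition counts as 1 library. There is thus no replicate check of any difference below, no test was run, and a second culture could give other values.

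The column totals were 25777042 to 25779434 counts in untreated cells and 26955568 to 26957141 counts in BLA-treated cells. The 3 columns differed by less than separate draws of reads would, with a chi-square per degree of freedom of 0.25 and 0.0951, where separate draws give about 1. Levels are CPM, counts scaled to the library's total, after TMM scaling, and log2 fold changes are of BLA against untreated cells on CPM plus 0.5. A single value in parentheses after a pair of CPM values is the log2 fold change, and levels given as a pair are untreated first and BLA second. An interval printed beside a fold is the 95% exact binomial interval of the ratio of the counts, without the added 0.5, and covers counting error only. In the text a gene rose or fell where it passed 2-fold (a log2 fold change beyond 1 or -1), and this word describes 2 libraries and not a replicated effect. The labels give each column a batch date of its own. Each condition is 1 library, so batch and treatment cannot be told apart. In bulk samples fewer cells of a type and less RNA per cell cannot be told apart either. The epithelial identity of the line was readable in both libraries: the summed level of 12 epithelial markers was 1376 CPM in untreated and 1049 CPM in BLA-treated cells, with Krt8†, a simple epithelial keratin, at 276 and 176 CPM. Of the 11 epithelial markers tested, 7 had a log2 fold change below 0 and 4 above, such as Krt19 at 11.5 and 18.0 CPM. Of 8 leukocyte markers 4 reached 1 CPM in any library, and the sum over all 8 was 12.8 and 15.2 CPM. The 7 fibroblast markers summed to 94.4 and 104 CPM, of which Pdgfra held 90.5 and 102 CPM. Endothelial, adipocyte and muscle markers summed to at most 7.03 CPM per type in either library.

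Blackberry extract is rich in anthocyanins and other polyphenols, plant compounds that are studied for effects on redox balance, xenobiotic sensing, proliferation and inflammation in tumor cells. Genes of these programs are read out by known transcription factors: NRF2 drives antioxidant genes, the aryl hydrocarbon receptor drives Cyp1 genes, HIF-1 drives genes of the hypoxia response, ATF4 drives the integrated stress response, SREBP2 drives sterol synthesis, and E2F factors drive genes of DNA replication. The reads were counted over whole genes, introns included, so the values hold unspliced as well as spliced RNA. A dagger marks the first mention of a gene whose span overlaps another gene of the count table, since reads may have been split between them and its value is less certain. A gene without a position in the annotation carries no dagger, and its overlap is unknown.

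The filter kept 17647 genes that reached 1 CPM in any of the 5 libraries. Of these, 2907 (16.5%) passed 2-fold in BLA-treated cells, 1399 (7.93%) upward and 1508 (8.55%) downward, while 48.9% of all genes were above 0 and 50.9% below. These shares are the background against which each gene group below is read. Over all genes the median log2 fold change was -0.01 and its median size was 0.41. Many of the counted genes were weakly expressed. Of the 1399 genes that rose, 1046 had a mean under 10 CPM over the 5 libraries and 956 (68.3%) had a counting interval wholly past 2-fold. Of the 1508 that fell, 1350 had under 10 CPM and 1152 (76.4%) had such an interval. Among the 9771 genes with a mean of at least 10 CPM, 511 (5.23%) passed 2-fold, of which 353 (3.61%) rose and 158 (1.62%) fell, so rises made up 69.1% of the calls there and 48.1% over all genes. With 2 CPM added in place of 0.5, they made up 59.1%.

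**Figure D1:**
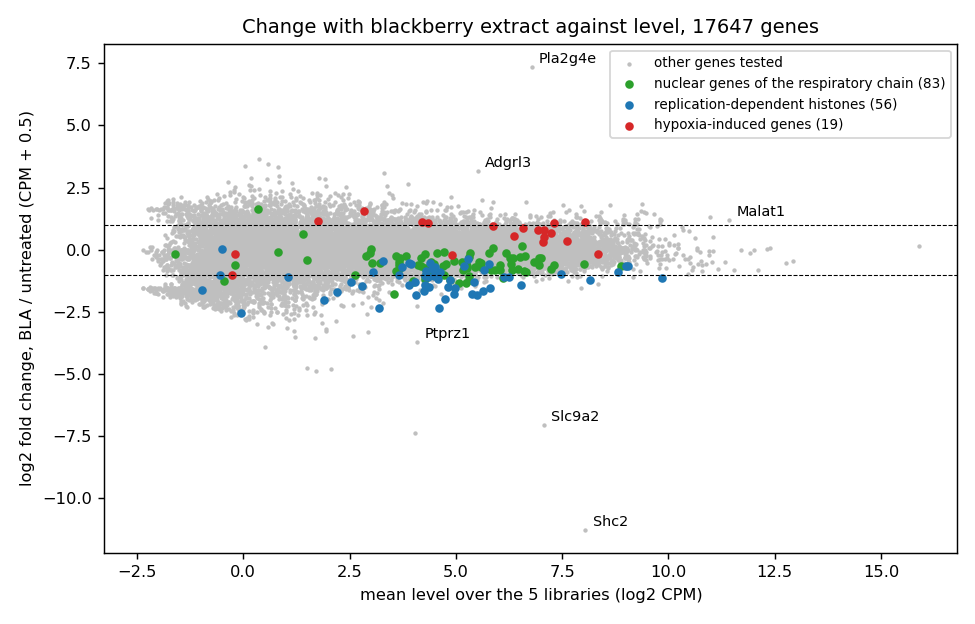
Each point is 1 of 17647 genes, with its mean level over the 5 libraries (log2 CPM, horizontal) against its log2 fold change in BLA-treated against untreated cells, 1 library each. Among the genes labeled by name, Shc2 at -11.27 and Pla2g4e at 7.34 stand farthest from 0, and the spread widens toward low levels.

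The largest rise was of Pla2g4e, a cytosolic phospholipase A2 that makes N-acyl phosphatidylethanolamines. The gene lies at chr2:119996893-120076084 (GRCm39) and overlaps no other gene of the count table. Its counts were 72, 83 and 73 in the untreated columns and 14841, 14819 and 14803 in the BLA columns. Its level rose from 2.86 to 545 CPM, or 191-fold (95% interval 152 to 242). It was at 2.23 (BLU-A), 0.951 (BLA-A) and 1.93 CPM (BLU), so BLA was the 1 library of the 5 in which it was high. Adgrl3, which encodes the adhesion receptor latrophilin 3, had a like pattern at chr5:81167344-81972980. It had 457, 481 and 452 counts in the untreated columns against 4384, 4386 and 4361 in BLA, and rose from 17.4 to 161 CPM, or 9.25-fold (95% interval 8.40 to 10.2). Its levels in the other treatments were 25.1 (BLU-A), 9.38 (BLA-A) and 17.4 CPM (BLU). Gdpd4, a glycerophosphodiester phosphodiesterase gene, rose from 1.65 to 14.9 CPM (log2 2.84, 2.72 to 3.65), and was at 1.02 (BLU-A), 0.648 (BLA-A) and 0.691 CPM (BLU). Angpt1†, the ligand of the endothelial receptor Tie2, rose from 4.96 to 25.7 CPM (log2 2.26, 2.11 to 2.65). It was at 7.03 (BLU-A), 9.90 (BLA-A) and 5.89 CPM (BLU), and 1 other gene overlaps its span. These 4 genes were higher in BLA than in each of the other 4 libraries.

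Other large rises differed in the levels of the remaining treatments. Maml3, a coactivator of Notch, rose from 282 to 996 CPM (log2 1.82, 1.78 to 1.86) and was at 689 (BLU-A), 528 (BLA-A) and 859.5 CPM (BLU), so the untreated library was the lowest of the 5. The adaptor gene Gab3† rose from 4.06 to 20.6 CPM and was at 9.98 (BLU-A), 4.67 (BLA-A) and 17.4 CPM (BLU). Nhej1, which encodes the end-joining factor XLF, rose from 3.42 to 13.7 CPM and was at 11.8 (BLU-A), 9.72 (BLA-A) and 12.7 CPM (BLU), again with the untreated library lowest. Acot2, a mitochondrial acyl-CoA thioesterase, rose from 2.82 to 11.5 CPM and was at 3.55 (BLU-A), 5.40 (BLA-A) and 2.76 CPM (BLU), so BLA was the highest of the 5. The zinc finger gene Zfr2 rose from 2.48 to 10.9 CPM and was at 3.36 (BLU-A), 2.90 (BLA-A) and 2.80 CPM (BLU), again with BLA highest. The remaining protein-coding genes among the 15 largest rises of at least 10 CPM were Amelx†, Slc6a20b†, Prelid2, Abhd18†, Gm19345† and Lrrtm2†, with log2 fold changes of 1.79 to 2.06. Of these 6, Amelx, Slc6a20b, Abhd18, Gm19345 and Lrrtm2 share their span with another gene.

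The largest falls were of genes that were low in all 4 treated libraries. Shc2, an adaptor that links receptor tyrosine kinases to Ras, lies at chr10:79453760-79473769 and overlaps no other gene. It had 35159, 35136 and 35213 counts in the untreated columns and 0, 1 and 1 in the BLA columns. Its level fell from 1322 to 0.0368 CPM, a log2 ratio of the counts of -15.13 (-20.44 to -12.66), and it was at 0 (BLU-A), 0 (BLA-A) and 0.109 CPM (BLU). The untreated library was thus the 1 library that held Shc2 RNA above the level of 3 counts, which is 0.113 CPM there and 0.110 CPM in BLA. Slc9a2, the sodium-proton exchanger NHE2, fell from 658 to 4.45 CPM, or 148-fold (95% interval 124 to 178), from 17487, 17562 and 17489 to 121, 122 and 119 counts per column. It was at 4.42 (BLU-A), 3.07 (BLA-A) and 3.67 CPM (BLU). Ptprz1, a receptor tyrosine phosphatase that binds pleiotrophin, fell from 68.8 to 4.78 CPM, or 14.4-fold (95% interval 12.0 to 17.3), and was at 2.95 (BLU-A), 3.63 (BLA-A) and 4.69 CPM (BLU). In both genes the 4 treated libraries lay close together and far under the untreated one. Gm36303, a predicted gene at chr5:91979238-92000481, had 2238, 2202 and 2163 counts in the untreated columns and 0 in each BLA column, which is at least 749.9-fold lower against the level of 3 counts in the library. It was at 0.0378 (BLU-A), 0.0432 (BLA-A) and 0.0727 CPM (BLU).

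Pik3cg, the catalytic subunit p110 gamma of PI3-kinase, fell from 15.1 to 0.0368 CPM, or 412-fold (95% interval 73.5 to 16309), and was at 0.151 (BLU-A), 0 (BLA-A) and 0.981 CPM (BLU). Fam20a†, a secretory pathway pseudokinase, fell from 24.9 to 1.80 CPM (log2 -3.47, -4.24 to -3.37), and was at 1.59 (BLU-A), 0.216 (BLA-A) and 1.38 CPM (BLU). Agtr1a, the type 1 angiotensin II receptor, fell from 12.2 to 2.32 CPM (log2 -2.17, -2.81 to -2.0), and was at 1.40 (BLU-A), 0.864 (BLA-A) and 1.34 CPM (BLU). In these 3 genes too the untreated library was the highest of the 5 by a wide margin. Zfp423†, a zinc finger transcription factor, fell from 15.7 to 0.0735 CPM, or 213-fold (95% interval 58.6 to 1766), and was at 2.19 (BLU-A), 0.216 (BLA-A) and 2.69 CPM (BLU), so BLA and BLA-A were lower than the blueberry libraries. The glutamate receptor gene Grik3† fell from 18.7 to 3.82 CPM and was at 14.7 (BLU-A), 2.59 (BLA-A) and 8.65 CPM (BLU). The other genes of this set were Asic2†, Rbms3†, Mad2l2† and Auts2†, with log2 fold changes of -2.24 to -1.82, and 3 histone genes.

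The order of the 5 libraries was counted for all genes past 2-fold. Of the 1399 that rose, BLA was the highest and the untreated library the lowest of the 5 in 627 (44.8%), BLA alone was at the end of the order in 496 (35.5%) and the untreated library alone in 225 (16.1%). BLA was higher than each other library by over 2-fold in 189 genes. Of the 1508 that fell, both were at the ends in 440 (29.2%), BLA alone in 438 (29.0%) and the untreated library alone in 526 (34.9%). By over 2-fold, the untreated library alone was set apart from each other library in 236 genes and BLA alone in 127. In 2 more genes both were. The 5 libraries include the pair compared, and the untreated library is the reference of every treatment.

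**Figure D2:**
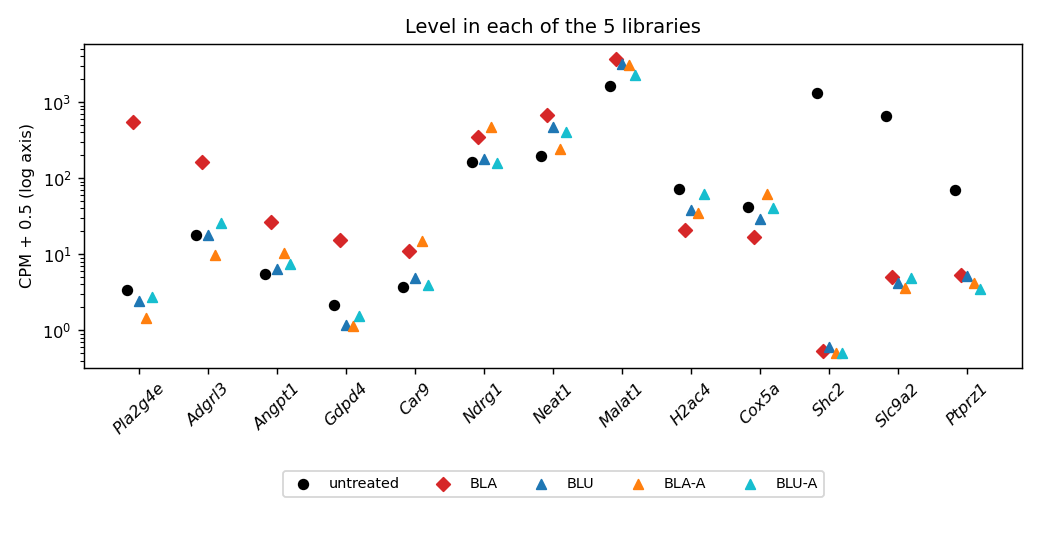
Levels (CPM + 0.5, log axis) of 13 genes in the untreated, BLA, BLU, BLA-A and BLU-A libraries, 1 point per library. Pla2g4e reached 545 CPM in BLA and at most 2.86 CPM elsewhere, while Slc9a2 reached 658 CPM in the untreated library and at most 4.45 CPM in the others.

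Among the gene groups with at least 5 members tested, the replication-dependent histones had the lowest median. These genes encode the core and linker histones that package new DNA in S phase, and most of their mRNAs end in a stem-loop and carry no poly(A) tail. Of 67 members 56 passed the filter, and 37 of them (66.1%) fell, against 8.55% of all genes. None rose, and 55 were below 0, with a median log2 fold change of -1.13. The summed level of all 67 members went from 5115 to 2545 CPM. All 4 core histone types were among the 37. The genes H3c3†, H2bc3† and H3c4 fell from 14.4 to 2.43 CPM (log2 -2.35, -2.97 to -2.19), from 24.2 to 5.77 CPM (log2 -1.98, -2.33 to -1.81) and from 16.3 to 4.19 CPM (log2 -1.84, -2.27 to -1.66). H2ac4 had 1935, 1911 and 1907 counts in the untreated columns and 549, 549 and 551 in BLA, and fell from 72.1 to 20.2 CPM (log2 -1.81, -1.97 to -1.70). H4c4†, the member with the highest count, fell from 1403 to 632 CPM (-1.15), and H1f2, a linker histone, was at 638 and 408 CPM (-0.64). In the other treatments the median of the group was -0.15 (BLU-A), 0.50 (BLA-A) and -0.88 (BLU). H3c3 was at 12.3 (BLU-A), 89.1 (BLA-A) and 3.78 CPM (BLU), so its level was lowest in BLA and highest in BLA-A. Histone copies are nearly identical in sequence, and reads that fit several copies were dropped by the mapping filter, so the split of counts between copies is uncertain.

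Promoter sequences of the histone genes with the largest falls are shown with the letters that histone promoters are known for. Sequences are the 250 bases before the gene start from RefSeq on GRCm38.p6, 5′ to 3′ in the direction of the gene, and the capitals mark CCAAT or TATAAA on either strand.
H3c3, chr13:23745522-23745771, minus strand: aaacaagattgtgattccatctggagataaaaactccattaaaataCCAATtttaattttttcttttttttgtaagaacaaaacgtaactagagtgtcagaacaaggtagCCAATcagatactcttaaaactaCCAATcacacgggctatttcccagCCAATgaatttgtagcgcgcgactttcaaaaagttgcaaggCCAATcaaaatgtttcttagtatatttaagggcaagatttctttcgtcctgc
H2bc3, chr13:23746484-23746733, plus strand: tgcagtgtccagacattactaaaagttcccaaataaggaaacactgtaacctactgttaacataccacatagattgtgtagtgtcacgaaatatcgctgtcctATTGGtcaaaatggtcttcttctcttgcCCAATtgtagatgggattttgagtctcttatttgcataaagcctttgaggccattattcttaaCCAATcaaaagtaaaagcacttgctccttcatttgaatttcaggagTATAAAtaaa
H3c4, chr13:23575513-23575762, plus strand: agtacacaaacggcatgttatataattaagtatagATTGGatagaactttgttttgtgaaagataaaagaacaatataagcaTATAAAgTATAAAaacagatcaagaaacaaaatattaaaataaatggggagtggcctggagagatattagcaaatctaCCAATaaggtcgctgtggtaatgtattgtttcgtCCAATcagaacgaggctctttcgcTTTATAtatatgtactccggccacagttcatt
CCAAT was in 42 of 50 histone promoters (84.0%) against 35.2% of the 13323 promoters of genes tested and 34.5% of all 27025 promoters in the table. TATAAA was in 24 of 50 (48.0%), against 7.9% and 13.0%. Within the histones, CCAAT was in 30 of 33 promoters of members that fell and in 12 of 17 of the others, and TATAAA in 16 of 33 and 8 of 17. A match describes the letters of the window and is not a bound site.

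Genes of mitochondrial respiration were lower. The mitochondrial genome encodes 13 subunits of the respiratory chain and its ATP synthase, of which 7 had counts and 6 were listed at 0 in both libraries. All 7 were below 0, with a median of -0.83 and a summed level going from 15004 to 9092 CPM. ND6†, a complex I subunit read from the light strand, fell from 677 to 315 CPM (log2 -1.11, -1.14 to -1.07), and overlaps ND5† on the other strand. COX1, the catalytic subunit of cytochrome c oxidase, was at 5875 and 4059.9 CPM (log2 -0.53, -0.54 to -0.52) and CYTB of complex III was at 2137 and 1250.1 CPM (-0.77). The other medians were -0.03 (BLU-A), 1.0 (BLA-A) and -0.35 (BLU). Of 83 nuclear genes of the respiratory chain and ATP synthase tested, 14 (16.9%) fell, against 8.55% of all genes. Of the 70 members of at least 10 CPM 12 fell, against 1.62% of all genes of that level. Of the 83, 1 rose and 78 were below 0, with a median of -0.59 against -0.12 (BLU-A), 0.25 (BLA-A) and -0.38 (BLU). Cox5a of complex IV fell from 41.3 to 16.2 CPM (log2 -1.33, -1.51 to -1.19), Ndufa4 fell from 22.3 to 8.57 CPM (log2 -1.33, -1.60 to -1.16) and Ndufa11† of complex I fell from 16.8 to 6.62 CPM (-1.28). Atp5f1b†, the beta subunit of ATP synthase with a high count, was at 553 and 351 CPM (-0.66). Of the 82 with a position in the annotation, 47 share their span with another gene. Of the 14 that fell, 6 were among the genes with no known overlap.

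Genes of protein synthesis, folding and turnover mostly lay below 0 with few past 2-fold. Of 81 cytosolic ribosomal protein genes 5 fell and 72 were below 0 (median -0.39). Rplp1, an acidic stalk protein, fell from 252 to 95.4 CPM (log2 -1.39, -1.46 to -1.33), while Rpl4†, with the highest count, was at 1860.1 and 1299.6 CPM (-0.52). Of 77 mitochondrial ribosomal protein genes 3 fell (median -0.40), among them Mrpl12 at 68.0 and 31.8 CPM (-1.08). Of 37 proteasome genes 2 fell, Psmb3 at 27.4 and 12.6 CPM (log2 -1.09, -1.31 to -0.93) and Psmb5†, and 35 were below 0 (median -0.52). All 14 chaperonin and prefoldin genes, whose products fold actin and tubulin, were below 0 and none fell past 2-fold (median -0.51), as Cct5† at 396 and 252 CPM (-0.65). Of 12 tubulin genes 11 were below 0 and none fell past 2-fold (median -0.64), with Tubb5† at 890.5 and 684 CPM (-0.38). Of 30 nucleolar ribosome biogenesis genes 1 fell, Nop16† at 28.5 and 13.3 CPM (-1.07), 28 were below 0 (median -0.51), and nucleolin (Ncl†) was at 2075 and 1271 CPM (log2 -0.71, -0.73 to -0.69). Myc, which drives many of these genes, was at 236 and 217 CPM (log2 -0.12, -0.17 to -0.07). Of 20 heat shock protein genes none rose or fell (median -0.36), with Hspe1† at 37.1 and 18.7 CPM (-0.97) and Hspd1† at 622 and 349 CPM (-0.83), the paired chaperonins of mitochondria.

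**Figure D3:**
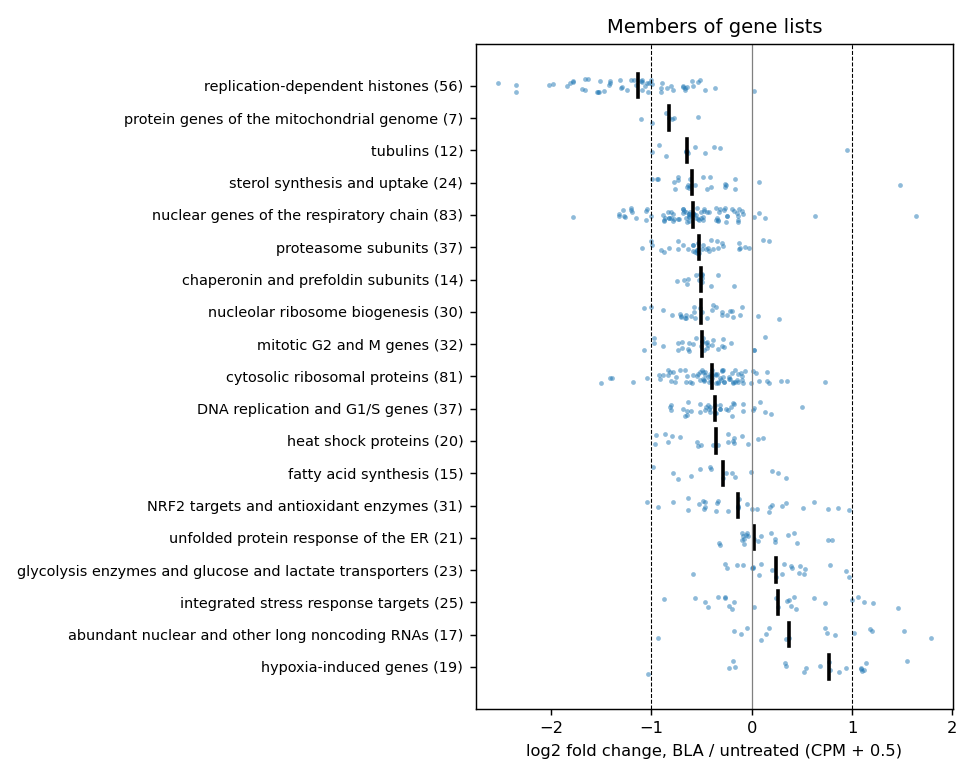
Log2 fold change in BLA-treated against untreated cells of each member of a gene group (points), with the median as a black bar and 2-fold as dashed lines. The histones lie lowest at -1.13, the respiratory genes at -0.59, and the hypoxia-induced genes highest among the groups described at 0.77.

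Cell cycle genes were lower by smaller amounts than the histones. Of 32 mitotic genes 29 were below 0 with a median of -0.49, and 1 fell past 2-fold, Pbk, a mitotic kinase, from 107 to 50.3 CPM (log2 -1.08, -1.18 to -0.99). Plk1 was at 119 and 60.5 CPM (log2 -0.97, -1.07 to -0.89), Cdc20†, an activator of the anaphase-promoting complex, at 81.8 and 41.4 CPM (-0.98) and Mki67, the Ki-67 antigen, at 2147 and 1578 CPM (-0.44). The medians in the other treatments were -0.07 (BLU-A), -0.31 (BLA-A) and -0.14 (BLU). Of 37 DNA replication genes 31 were below 0 and none rose or fell (median -0.36). The helicase subunits Mcm3 and Mcm4 were at 254 and 144 CPM (-0.81) and 279 and 159 CPM (-0.81), while Pola1†, the catalytic subunit of DNA polymerase alpha, was at 179 and 253 CPM (0.50). Cyclin D1 (Ccnd1†) had 31350, 31505 and 31371 counts in the untreated columns and 19128, 19172 and 19207 in BLA, a change from 1180.5 to 705 CPM (log2 -0.74, -0.77 to -0.72) that did not reach 2-fold. Cyclin D3 (Ccnd3†) and Cdk6† lay the other way, at 0.62 and 0.59, and the inhibitor Cdkn1a was at 21.1 and 20.4 CPM (-0.04).

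Most sterol synthesis genes lay below 0 within 2-fold. Of 24 genes 22 were below 0, none fell past 2-fold, 1 weakly expressed gene rose and the median was -0.59, against -0.18 (BLU-A), 0.43 (BLA-A) and -0.27 (BLU). Hmgcs1†, which makes HMG-CoA, had 5713, 5725 and 5726 counts in the untreated columns and 3412, 3426 and 3413 in BLA (from 215 to 126 CPM, log2 -0.77, -0.84 to -0.71). Hsd17b7, an enzyme of the later steps, was at 49.5 and 24.6 CPM (log2 -0.99, -1.15 to -0.87). Of 15 fatty acid synthesis genes none rose or fell (median -0.29), with Fasn at 721 and 434 CPM (log2 -0.73, -0.77 to -0.70) and Scd2† at 2883 and 2019.8 CPM (-0.51).

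Hypoxia-induced genes had the highest median among the groups with at least 5 members tested. In this program HIF-1 binds ACGTG or GCGTG near genes of pH control, collagen hydroxylation, mitophagy and glucose use. Of 19 genes tested 6 (31.6%) rose, against 7.93% of all genes. Of the 19, 1 fell and 15 were above 0, with a median of 0.77 in BLA and of -0.02 (BLU-A), 0.74 (BLA-A) and 0.12 (BLU). Car9, the membrane carbonic anhydrase IX, had 84, 92 and 83 counts in the untreated columns and 281, 283 and 287 in BLA. It rose from 3.23 to 10.4 CPM (log2 1.55, 1.34 to 2.06) and was at 3.40 (BLU-A), 14.3 (BLA-A) and 4.36 CPM (BLU), so BLA and BLA-A were higher than the remaining 3 libraries. Ndrg1† had 4246, 4290 and 4325 counts in the untreated columns and 9513, 9466 and 9536 in BLA, rose from 161 to 349.5 CPM (log2 1.11, 1.07 to 1.17), and was at 159.7 (BLU-A), 471 (BLA-A) and 180.5 CPM (BLU). P4ha2, a collagen prolyl hydroxylase subunit, rose from 10.4 to 22.7 CPM (log2 1.09, 0.92 to 1.33), and Ero1a, an ER oxidase, rose from 114 to 242 CPM (log2 1.08, 1.03 to 1.15). Higd1a† rose from 15.5 to 33.8 CPM (1.10) and Ankrd37† rose from 2.89 to 6.99 CPM (1.14). The mitophagy receptors Bnip3 and Bnip3l were at 0.94 and 0.77, and Vegfa, the angiogenic ligand, was at 92.9 and 133 CPM (0.52). Hif1a† was at 301 and 268 CPM (-0.17), and the member that fell was Adm†, at 0.677 and 0.0735 CPM. Ankrd37, Higd1a and Ndrg1 share their span with genes of the other strand, and without overlapping genes 3 members rose.

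The promoters of the 3 risen members that overlap no other gene are shown in the same way, with capitals marking ACGTG or GCGTG on either strand.
Car9, chr4:43506776-43507025, plus strand: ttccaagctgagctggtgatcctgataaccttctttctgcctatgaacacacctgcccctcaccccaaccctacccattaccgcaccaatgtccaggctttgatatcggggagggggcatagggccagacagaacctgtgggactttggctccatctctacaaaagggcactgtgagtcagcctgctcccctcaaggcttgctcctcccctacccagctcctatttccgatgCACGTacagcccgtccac
Ero1a, chr14:45318573-45318822, minus strand: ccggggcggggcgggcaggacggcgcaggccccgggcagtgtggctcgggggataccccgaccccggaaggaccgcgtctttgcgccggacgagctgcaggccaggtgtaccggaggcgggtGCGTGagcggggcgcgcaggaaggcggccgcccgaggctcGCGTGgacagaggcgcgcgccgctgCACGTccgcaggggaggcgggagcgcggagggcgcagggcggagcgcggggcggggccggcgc
P4ha2, chr11:54100674-54100923, plus strand: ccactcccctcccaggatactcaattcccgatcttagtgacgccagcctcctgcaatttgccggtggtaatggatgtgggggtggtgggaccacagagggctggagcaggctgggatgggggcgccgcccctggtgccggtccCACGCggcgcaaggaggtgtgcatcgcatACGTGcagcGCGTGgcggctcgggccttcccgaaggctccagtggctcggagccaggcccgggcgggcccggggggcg
Either motif was in the promoters of all 5 risen members with an entry and of 13 of 15 tested members (86.7%), against 51.4% of the promoters of genes tested and 38.6% of all promoters. ACGTG alone was in 20.1% and GCGTG alone in 40.6% of the promoters of genes tested. The letters CACGTG hold ACGTG on both strands. Ndrg1 was not matched.

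Glycolysis genes, many of them also HIF-1 targets, did not pass 2-fold. Of 23 genes 18 were above 0 and none rose or fell, with a median of 0.24 against -0.14 (BLU-A), 0.34 (BLA-A) and -0.15 (BLU). The glucose transporter Slc2a1† was at 91.5 and 179.6 CPM (log2 0.97, 0.90 to 1.04) and hexokinase 2 (Hk2) at 107 and 184 CPM (log2 0.78, 0.71 to 0.85). Gapdh† was at 12.9 and 25.2 CPM (0.94) and shares its span with another gene, and Eno1 and Pkm†, with the highest counts, were at -0.25 and -0.09. Reads that fit several places were dropped by the mapping filter, and Aldoa had 0 counts in both libraries. The level of Gapdh may thus be partial too, which was not tested. The lactate transporter Slc16a1 lay lower, at 147 and 98.1 CPM (-0.59).

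Stress response genes lay on both sides of 0. Of 25 integrated stress response targets 4 rose and none fell (16.0% called, against 16.5% of all genes). Of the 25, 15 were above 0 and the median was 0.26, or 0.02 over members of at least 10 CPM. The transcription factor gene Atf3 had 1142, 1139 and 1170 counts in the untreated columns and 2743, 2755 and 2731 in BLA, and rose from 43.2 to 101 CPM (log2 1.21, 1.12 to 1.32). Ddit3, which encodes CHOP, rose from 14.1 to 31.2 CPM (log2 1.12, 0.97 to 1.32). The other 2 were the lipoprotein receptor Vldlr, from 2.44 to 5.63 CPM, and the amino acid transporter Slc7a3, from 0.376 to 1.91 CPM, both weakly expressed. Atf3 was at 59.5 (BLU-A), 146 (BLA-A) and 64.5 CPM (BLU) and Ddit3 at 20.4 (BLU-A), 19.1 (BLA-A) and 21.2 CPM (BLU), so untreated cells had the lowest level of both. The ATF4-driven serine and one-carbon enzymes were on the other side of 0: Psat1 was at 156 and 105 CPM (-0.57) and Shmt2† at 106 and 57.6 CPM (log2 -0.87, -0.97 to -0.79). Atf4 itself was at 294 and 256 CPM (-0.20). Of 21 unfolded protein response genes none rose or fell (median 0.03). The ER chaperone Hspa5† was at 2485 and 2399 CPM (-0.05), while the cochaperone Dnajb9† and the sensor Ern1 were at 18.0 and 31.6 CPM (0.80) and 100.4 and 171 CPM (0.76).

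Antioxidant and xenobiotic genes gave few changes. Of 31 NRF2 targets and antioxidant enzymes 1 fell and none rose (median -0.14). Gpx4, which reduces lipid hydroperoxides, fell from 36.9 to 17.6 CPM (log2 -1.04, -1.23 to -0.91) and was at 42.4 (BLU-A), 24.2 (BLA-A) and 24.5 CPM (BLU). Hmox1, heme oxygenase 1, was at 3.61 and 7.54 CPM (log2 0.97, 0.71 to 1.43), Gclc, of glutathione synthesis, at 34.2 and 58.5 CPM (0.76) and Nqo1 at 15.7 and 9.97 CPM (-0.63). Of 12 aryl hydrocarbon receptor genes 8 were tested and none rose or fell (median 0.36). Cyp1a1 and Cyp1a2 had 0 counts in both libraries, which allows up to 3 counts, or 0.110 CPM in BLA. Cyp1b1 was at 48.1 and 64.8 CPM (log2 0.43, 0.32 to 0.53) and Tiparp† at 133 and 176 CPM (0.41). Among 18 metallothionein and zinc transporter genes none rose or fell, and in iron handling Fth1†, the ferritin heavy chain, was at 1499 and 962 CPM (-0.64).

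Genes of cell death did not form a called group. Of 13 Bcl2† family genes none rose or fell: Bcl2 and Bcl2l11, which encodes BIM, were at 137 and 247 CPM (0.85) and 129 and 239 CPM (0.89), and the pore former Bak1† was at 30.3 and 17.2 CPM (-0.80). Of 27 caspase, inhibitor and death receptor genes 1 rose, Cycs, with few counts at 0.263 and 1.29 CPM, and Fas was at 7.29 and 12.3 CPM (0.71). Reads that fit several places were dropped by the mapping filter, so the level of Cycs may be partial, which was not tested. Of 25 genes of p53 and its targets 1 fell, Trp63†, at 2.33 and 0.883 CPM. Trp53inp1 was at 16.1 and 31.7 CPM (0.96) and Perp at 29.5 and 16.1 CPM (-0.85).

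Calls among signaling genes were in both directions. Of 20 Notch pathway genes 4 rose and none fell (20% called, against 16.5% of all genes). They were Maml3, its paralog Maml2† from 427 to 1160.4 CPM (log2 1.44, 1.41 to 1.47), the ligand Dll1† from 6.13 to 15.7 CPM (log2 1.29, 1.09 to 1.63) and Rbpj†, the DNA-binding effector, from 283 to 582 CPM (1.04). The other 16 included Dll4† at 22.5 and 11.4 CPM (-0.94), so ligands lay on both sides of 0. Of 15 receptor tyrosine phosphatase and pleiotrophin genes 2 rose and 5 fell (46.7%). Of the 7 members of at least 10 CPM 2 rose and 1 fell. The list had a median span of 179 kb. Of all genes tested with a span of at least 82.0 kb, 7.31% rose and 17.5% fell. The receptor phosphatases Ptprk and Ptprj rose from 331 to 789 CPM (log2 1.25, 1.22 to 1.29) and from 74.0 to 151 CPM (log2 1.02, 0.95 to 1.11), and the fallen members were Ptprz1, Ptprg†, Ptpro, Ptprd† and Ptprm†. Of 34 Wnt genes the orphan receptor Ror1† rose from 8.49 to 26.8 CPM (log2 1.60, 1.44 to 1.88), Tcf7l1† rose from 31.3 to 64.0 CPM (1.02), and 2 weakly expressed genes, Ror2† and Dkk2, fell. In the TGF-beta list of 29 the ubiquitin ligase Smurf1† rose from 108 to 222 CPM (1.04), Id1, a BMP target, fell from 11.1 to 3.02 CPM (log2 -1.73, -2.25 to -1.53), and Smad3 was at 418 and 794 CPM (0.93). In the PI3-kinase list of 29 the 1 call was Pik3cg, with Foxo3 and Foxo1 at 0.91 and 0.88. Among 23 ErbB genes Shc2, Erbb4, Nrg3† and Shc3 fell. None of 22 NF-kB genes rose or fell, with Nfkbiz at 74.5 and 132 CPM (0.82). The share called was 11.8% of the Wnt, 6.9% of the TGF-beta and 3.45% of the PI3-kinase list. It was 17.4% of the ErbB list, against 16.5% of all genes.

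Immune, matrix and adhesion genes gave calls in both directions. Of 33 interferon-stimulated genes 4 rose and 1 fell (15.2% called, against 16.5% of all genes). The fallen gene was Sting1, the receptor of cyclic dinucleotides, from 33.5 to 16.2 CPM (log2 -1.02, -1.21 to -0.88), and the risen ones, Zbp1, Ifi44, Gbp7 and Oas3, were at most 5.63 CPM in BLA. Nlrc5†, the transactivator of MHC class I genes, rose from 40.8 to 89.2 CPM (log2 1.12, 1.02 to 1.23). Of 27 cytokine genes 2 (7.41%) rose, against 7.93% of all genes. Il34† rose from 38.0 to 78.9 CPM (1.04) and Cxcl3 went from 0 to 1.21 CPM, and Spp1, osteopontin, was at 1953 and 1319 CPM (-0.57). The integrin gene Itga9† fell from 80.2 to 32.3 CPM (log2 -1.30, -1.43 to -1.20). Palld†, which encodes the actin-binding protein palladin, fell from 532 to 180.0 CPM (log2 -1.56, -1.61 to -1.52) and was at 159.8 (BLU-A), 191 (BLA-A) and 176 CPM (BLU), so it was high in the untreated library alone. S100a11 fell from 154 to 64.6 CPM (log2 -1.24, -1.33 to -1.17), and S100a4, a metastasis-associated member, was at 388 and 227 CPM (-0.77). Of 32 cadherin genes 13 (40.6%) fell, against 8.55% of all genes, and none rose (median -0.75). The 13 were at most 4.49 CPM in BLA, the level of Cdh18†. Weak and long genes fell more often in general. Of all genes tested, 25.3% fell at a mean of 0.195 to 1.55 CPM and 11.7% at 1.55 to 7.45 CPM. The cadherin list had a median span of 158 kb, and 17.5% of all genes tested with a span of at least 82.0 kb fell. The 12 members of at least 10 CPM of the list had a median of 0.03, and Cdh1, E-cadherin, was at 124 and 124 CPM (0.01).

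Several nuclear noncoding RNAs rose. Of 17 long noncoding RNAs tested 5 (29.4%) rose and none fell, with a median of 0.38 in BLA and of 0.43 (BLU-A), 0.20 (BLA-A) and 0.25 (BLU). Neat1†, which scaffolds paraspeckles, had 5205, 5141 and 5095 counts in the untreated columns and 18210, 18172 and 18155 in BLA, and rose from 193 to 668 CPM (log2 1.79, 1.74 to 1.83). It was at 404 (BLU-A), 242 (BLA-A) and 476 CPM (BLU), so the untreated library was lowest. Malat1, of nuclear speckles, had 43174, 43046 and 42996 counts in the untreated columns and 100988, 100987 and 100987 in BLA, and rose from 1619 to 3714 CPM (log2 1.20, 1.18 to 1.21). Pvt1† rose from 353 to 1011 CPM (log2 1.52, 1.49 to 1.55), Airn† rose from 211 to 478 CPM (1.18) and Firre rose from 33.7 to 68.6 CPM (1.02). Neat1, Pvt1 and Airn each share their span with a gene of the other strand. Among all genes matched to the annotation, 437 of 2512 long noncoding RNAs (17.4%) rose and 288 (11.5%) fell, against 4.82% and 7.91% of 13644 protein-coding genes. Of the 1296 that lie over a single coding gene of the other strand 252 (19.4%) rose and 97 (7.48%) fell, while of the 567 with no overlap 96 (16.9%) rose and 116 (20.5%) fell. At a mean of at least 10 CPM, 45 of 300 (15%) rose and 4 (1.33%) fell, against 5 (9.43%) and 3 (5.66%) of 53 with no overlap.

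Changes were graded by gene span, the distance from gene start to end. Among genes of at least 10 CPM in 5 bins of 1900, the median log2 fold change was -0.35 in the shortest bin (0.096 to 11.8 kb), then -0.18, -0.06 and 0.09, and 0.38 in the longest (80.9 to 2962 kb). In the longest bin 9.11% rose and 0.632% fell, and in the shortest 1.68% rose and 5.21% fell. The gradient was in the same order in BLU, with -0.26 in the shortest and 0.35 in the longest bin, and in BLU-A, with -0.09 and 0.19. In BLA-A the ends were 0.20 and 0.15. All values share the untreated library. Among all genes tested the longest bin held 7.31% that rose and 17.5% that fell. Examples in the longest bin were Maml3, the tumor suppressor Wwox† from 107 to 362 CPM (log2 1.75, 1.70 to 1.82), the junction scaffold Magi1† from 356 to 983 CPM (log2 1.46, 1.43 to 1.5) and Rad51b from 97.1 to 279 CPM (log2 1.52, 1.46 to 1.59), and on the other side Lrp1b† from 67.1 to 30.9 CPM (-1.11).

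**Figure D4:**
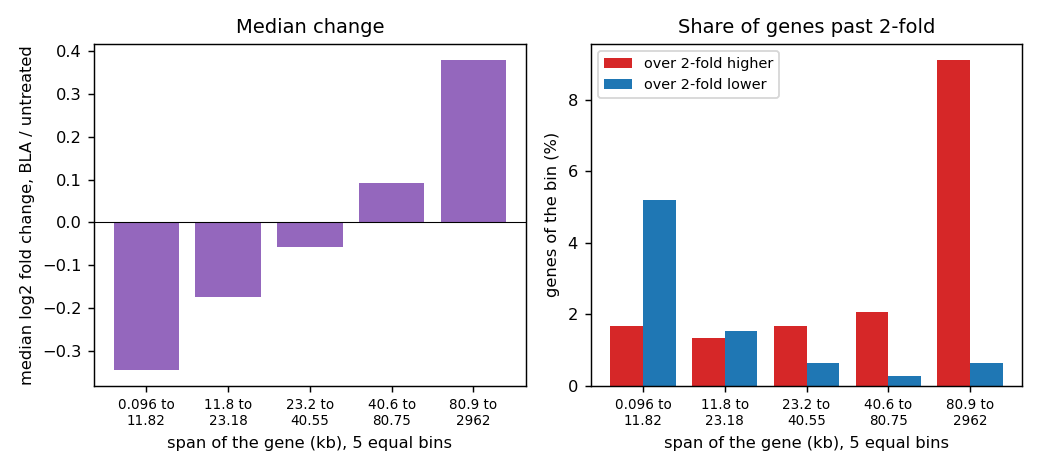
Genes with a mean of at least 10 CPM in 5 bins of 1900 by span (kb): left, the median log2 fold change in BLA-treated against untreated cells, 1 library each; right, the percent of the bin that passed 2-fold higher or lower. The median goes from -0.35 in the shortest to 0.38 in the longest bin.

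The gene groups differ in span, so each member was also read against the median of its span bin. The histone median was then -0.78, that of the mitochondrial genes -0.48, of the nuclear respiratory genes -0.28, of the sterol genes -0.46, of the mitotic genes -0.39 and of the proteasome -0.36. For the cytosolic ribosomal proteins it was -0.05, close to that of genes of the same span, and for the mitochondrial ones -0.17. The hypoxia-induced genes stayed above, at 0.70, and the glycolysis genes were at 0.36. Whether gene span or intron reads set any of these differences was not tested.

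The changes of antisense RNAs were compared with those of the gene they overlap. In 1296 long noncoding RNAs that lie over a single protein-coding gene of the other strand, the sign of the change was that of the coding gene in 861, and Pearson's r between the changes was 0.43 and Spearman's rho 0.40 across gene pairs, which are not independent replicates and share both libraries. In the 300 pairs of at least 10 CPM, r and rho were both 0.61 and 225 had the same sign. The median change was 0.24 for the 1296 RNAs and 0.07 for 567 with no overlap. At a mean of at least 10 CPM the order was reversed, with a median of 0.23 for the 300 and 0.32 for 53 with no overlap. The authors counted both mates of a pair as single reads with a strand setting, so reads of a gene and of its antisense partner may not be separated. The share of the noncoding changes that comes from this was not tested.

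**Figure D5:**
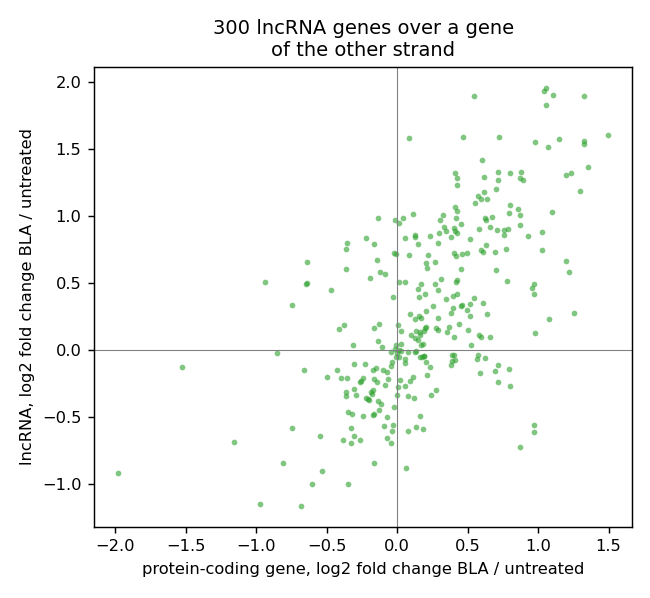
Log2 fold change of a long noncoding RNA (vertical) against that of the protein-coding gene on the other strand (horizontal), BLA-treated against untreated cells, for pairs of at least 10 CPM. Of the 300 pairs, 225 have the same sign.

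Of the most abundant transcripts Malat1 and Hmga2† rose, and the others stayed within 2-fold. The 15 genes with the highest counts held 12.0% of counts in untreated and 11.7% in BLA-treated cells. Gm26917, a predicted gene, took 5.94% and 6.40% (0.14), and without a position in the annotation used here its overlap is unknown. Eef1a1, the translation elongation factor, went from 0.959% to 0.688% of counts (-0.45), and Actb was at 5123 and 2878 CPM (log2 -0.83, -0.84 to -0.82). Hmga2, an oncofetal chromatin protein, rose from 1054 to 2641 CPM (log2 1.32, 1.30 to 1.34), was at 2063 (BLU-A), 1837 (BLA-A) and 2519 CPM (BLU), and shares its span with 4 other genes.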

How the data were processed

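The authors deposited raw read counts of 40402 genes, in 3 columns per condition. According to their methods, ribosomal RNA was removed enzymatically, reads were aligned to GRCm39 with STAR, and reads mapped to whole genes were counted by strand in OmicsBox with the 2 mates of a pair merged and treated as single-end, after a mapping quality filter. The submitters' processing notes name GRCm39 and DESeq2 1.36.0. The raw reads of 1 library per condition had been subset 3 times, which gave the 3 columns.

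The columns of a condition were averaged, and the 17647 genes that reached 1 CPM in any of the 5 libraries were kept. Counts were scaled by TMM in edgeR 4.0.16 (R 4.3.3) over the 5 libraries, and 0.5 was added to each CPM value before log2 fold changes were computed. A gene beyond a log2 fold change of 1 or -1 was counted as risen or fallen, with no test, since each condition has 1 library. Exact binomial 95% intervals of count ratios cover counting error only, and 3 counts are the floor of a gene at 0. Gene positions and overlaps came from GENCODE release M39 on GRCm39, which matched 92.7% of the genes kept. Promoters came from RefSeq on GRCm38.p6. Scripts ran in Python 3.11.15 with numpy 2.4.6, pandas 2.3.3, scipy 1.17.1 and matplotlib 3.10.9, and were tested on simulated data. DESeq2 1.42.0 gave size factors for an alternative.

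The gene lists and the comparison were chosen with earlier results of these data known. Named genes were, in each of 81 lists, up to 3 with the largest rise and 3 with the largest fall among members with a mean of at least 5 CPM over both libraries and the 2 with the highest counts. Over all genes they were the 15 protein-coding genes with the largest rise and the 15 with the largest fall among those of at least 10 CPM in either library, and the 15 with the highest counts in each. Other genes were named after their values were seen, either because a count of few genes was spelled out or as members of a program, such as Bnip3, Bnip3l, Cdkn1a, CYTB, H2ac4, Hmgcs1, Lrp1b, Myc and Ndufa11. The fold changes and p-values of the authors' own tests were not used. Of their enrichment table, which holds scores and p-values, only the members listed for 100 terms were used. Some genes that the rule names are not reported here.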

Additional observations from a re-analysis of the deposited data

How the results depend on the processing

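No paired analysis was possible because the columns of a condition are subsets of 1 library and no result comes from a test. The number of genes past 2-fold depended on the treatment of weak genes. Against 1399 that rose and 1508 that fell (2907 in all), it was 557 and 386 (943) with 2 CPM added, 353 and 158 (511) at a mean of at least 10 CPM, 681 and 781 (1462) without overlapping genes, and 3216 and 3205 (6421) at 1.5-fold. The set without overlapping genes kept 1293 genes without a position in the annotation, whose overlap is unknown. Of these 273 rose and 123 fell. Without the filter 2353 fell. Leaving out 1 column of each condition gave 1393 to 1399 that rose and 1516 to 1521 that fell, 2913 to 2917 in all. Scaling by total counts, DESeq2 size factors or TMM over the 2 libraries moved the median of all genes by at most 0.03 and these counts by less than 1.5 times.

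The integrated stress response targets that rose were 2 with 2 CPM added and at a mean of at least 10 CPM. Without overlapping genes 3 hypoxia-induced genes rose, and 2 ribosomal protein genes and 6 nuclear respiratory genes fell.

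Subtracting from each member the median of genes of like span, an alternative chosen after seeing the data, moved the group medians to -0.7833 (histones), -0.4813 (mitochondrial genome), -0.3882 (mitotic genes), -0.3636 (proteasome), -0.323 (chaperonins), -0.2971 (tubulins), -0.2807 (nuclear respiratory genes), -0.2496 (ribosome biogenesis), -0.1905 (DNA replication) and -0.0536 (ribosomal proteins). Among group medians farther than 0.25 from 0, the sign turned for receptor tyrosine phosphatases without the filter (-0.0478), for cadherins (0.0306) and very long genes (0.7811) at a mean of at least 10 CPM, and for fatty acid oxidation genes without overlapping genes (0.1242). The cause was not tested. Of 981 group medians recomputed, 948 stayed within the binomial interval of the median over the members, and 32 groups had a median of the other sign in at least 1 of them. Of 4352 values of named genes 16 had the other sign, in 9 genes whose reported value was at most 0.0276 in size. Groups with fewer than 5 members left gave no value under a setting. Depth limited weak genes: 3 counts are 0.113 CPM in untreated and 0.110 CPM in BLA-treated cells.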

Other observations

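Further gene groups were read in the same way. Of 20 circadian clock genes 2 (10.0%) fell, against 8.55% of all genes, and none rose (median 0.23). Rora, a nuclear receptor of the clock, fell from 7.52 to 0.184 CPM and Npas2 fell from 2.63 to 0.147 CPM, while Bmal1, the activator of the core loop, was at 37.5 and 69.9 CPM (0.89) and Per1, one of its repressors, at 11.7 and 22.0 CPM (0.88). Of 32 chromatin modifier genes Hdac8, a class I deacetylase, rose from 41.8 to 100.4 CPM (log2 1.25, 1.16 to 1.36), while Hdac9 and Tet1 fell from 9.70 to 2.17 CPM and from 4.96 to 2.06 CPM. Rora, Npas2, Bmal1, Hdac8, Hdac9 and Tet1 share their span with another gene, so their values are less certain. Of 34 lysosome and autophagy genes Mitf, a transcription factor of lysosomal genes, rose from 32.3 to 76.0 CPM (log2 1.22, 1.12 to 1.35) and Map1lc3a fell from 6.28 to 1.62 CPM (log2 -1.68, -2.47 to -1.47), with a group median of 0.01. Of 40 repair genes 1 rose, Rad51b, and the median was 0.02. The share called was 9.38% of the chromatin modifier, 5.88% of the lysosome and 2.5% of the repair list, against 16.5% of all genes. Of 15 genes with poison exons or retained introns 14 were above 0 (median 0.35), with Ogt, the O-GlcNAc transferase, at 167 and 312 CPM (0.90) and the splicing kinase gene Clk1 at 146 and 227 CPM (0.63). Of 3030 predicted Gm genes 597 (19.7%) rose and 331 (10.9%) fell, against 7.93% and 8.55% of all genes, with a median of 0.23.

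Members of GO terms listed in the deposited enrichment table were also read. The authors chose these terms on the same data, so they are no independent evidence of a direction. Of 77 terms with 20 to 200 genes tested, structural constituent of chromatin had the lowest median, at -1.05 over 64 genes with 35 that fell and 0 that rose. Regulation of receptor internalization had the highest, at 0.19 over 60 genes with 9 that rose and 0 that fell.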
